A study of Mus musculus with 3 samples.

Results

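Astrocyte sub-cluster 3 comprises the nuclei that the deposited annotation labels as astrocytes and places in the sub-cluster numbered 3. It holds 195 of 1555 astrocyte nuclei, among 14662 nuclei in all, and is the second smallest of 5 astrocyte sub-clusters, sub-clusters 0, 1, 2 and 4 holding 524, 438, 220 and 178 nuclei. At 90 days of age, lumbar spinal cord was taken from 12 mice, with 3 mice of either sex in both genotypes. Transgenic mice, strain B6.Cg-Tg(SOD1*G93A)1Gur/J and called SOD1G93A here, carry many copies of a human SOD1 gene with a mutation of familial amyotrophic lateral sclerosis (ALS), and the wild-type (WT) controls were C57BL/6J littermates. Mice were perfused with PBS, and nuclei were tagged with hashtag antibodies and run on the 10x platform in 3 pools, A, B and C, each with 1 mouse of every sex and genotype. Each mouse gave 9 to 26 nuclei and 31242 to 209123 unique molecular identifiers (UMIs, which count captured RNA molecules) to sub-cluster 3, so that single genes of low level rest on few molecules. Levels are given as CPM, the UMIs of a gene per 1000000 UMIs summed over the nuclei of 1 mouse, as mean ± SD over mice unless stated otherwise, and compare populations or genotypes for the same gene.

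Astrocytes take up glutamate and potassium, move water at their endfeet around vessels and supply neurons with metabolites. Those of the spinal white matter, the fibrous astrocytes, are rich in the intermediate filament protein GFAP and in the hyaluronan receptor CD44, whereas the protoplasmic astrocytes of the grey matter ensheath synapses and are rich in transporters for glutamate, GABA and glycine. Astrocytes of both kinds raise GFAP and vimentin when they become reactive in injury and in ALS.

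The nuclei of sub-cluster 3 carried the defining markers of astrocytes. Aqp4, the water channel of the endfeet, stood at 2123 ± 423 CPM in sub-cluster 3 and 717 ± 240 CPM in the other astrocytes, with a median log2 ratio of 1.52 over the 12 mice. Gfap, on chromosome 11 at 102887336-102900912 (build GRCm38, as for all positions here), stood at 1279 ± 253 vs. 256 ± 123 CPM, with a median log2 ratio of 2.23. Both were higher in sub-cluster 3 in 12 of 12 mice, and neurons and oligodendrocytes held 8.21 and 20.3 CPM of Gfap. Slc1a2, the main glutamate transporter of astrocytes, was close to level at 5435 ± 1105 vs. 5552 ± 631 CPM, higher in 5 of 12 mice. Of the 195 nuclei, 191 belonged to Seurat cluster 2 of the whole tissue and 191 were mapped to astrocytes of the reference used by the authors. SingleR, which compares a nucleus with purified cell types, labelled 94 as astrocytes or activated astrocytes, counted together, 55 as quiescent neural stem cells and 22 as granulocytes. Their median depth was 6418 UMIs and 2756 genes, and the per-mouse median of UMIs exceeded that of the other astrocytes in 11 of 12 mice, by 0.29 ± 0.23 on the log2 scale (SD, n = 12). Nuclei below 2000 UMIs, 2 in sub-cluster 3 and 74 in the other astrocytes, were left out of the thinning. With the rest thinned to 2000 UMIs, Gfap was seen in 89.1% of 193 nuclei of sub-cluster 3 (95% Wilson interval 83.9 to 92.8), against 58.3% in sub-cluster 4, 36.8% in sub-cluster 0 and 14.4% in both sub-clusters 1 and 2. The unthinned shares were 97.9%, 80.3%, 63.4%, 25.8% and 26.4% in the same order. These intervals cover counting error only.

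How the sub-clusters were computed is not given in the sources used here, and since expression may have set them, the genes that tell them apart are described without a test. The 10 genes of the fibrous astrocyte list summed to 5501 ± 824 CPM in sub-cluster 3, against 2838 in sub-cluster 4, 1759 in sub-cluster 0, 746 in sub-cluster 1 and 649 in sub-cluster 2, and the sum of sub-cluster 3 was the highest of the 5 in 12 of 12 mice. Of the 10 genes, 9 had a median log2 ratio of at least 1 to the other astrocytes, and S100b, which encodes a calcium-binding protein, had 0.75. Cd44 (chromosome 2, 102811141-102901665) stood at 240 ± 122 vs. 18.3 ± 10.8 CPM and Slc38a1, a glutamine transporter, at 721 ± 210 vs. 157 ± 46.5 CPM. Vim, which encodes vimentin, stood at 68.0 ± 40.5 vs. 6.87 ± 6.27 CPM, the transcriptional regulators Id3 and Id1 at 144 ± 49.3 vs. 37.8 ± 11.8 and 54.4 ± 24.9 vs. 5.45 ± 3.68, and the matrix glycoprotein gene Tnc at 115 ± 75.5 vs. 16.9 ± 10.3 CPM. Over all 4087 genes of at least 50 CPM in either population, the median log2 ratio was 0.07, with 158 genes at or above 1 and 160 at or below -1.

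The 10 genes of the protoplasmic astrocyte list moved the other way, from 27462 ± 3508 CPM in the other astrocytes to 12814 ± 2884 in sub-cluster 3, lower in 12 of 12 mice. This sum was also the lowest of the 5 sub-clusters by mean, with 36154 CPM in sub-cluster 1 and 17878 in sub-cluster 2. In this list 3 genes had a median log2 ratio below -1. Gpc5, a glypican of the cell surface on chromosome 14 at 115092215-116525179, stood at 1340 ± 394 vs. 8522 ± 1993 CPM, the cation channel gene Trpm3 at 4637 ± 1247 vs. 11302 ± 1855, and Slc7a10, a transporter of small neutral amino acids, at 65.8 ± 36.9 vs. 255 ± 46.7 CPM. The GABA transporter Slc6a11 and the glycine transporter Slc6a9 were lower by less, at log2 -0.73 and -0.59, and were below the other astrocytes in every mouse. Kcnj10, the inward rectifier that clears potassium, and Grm3, a metabotropic glutamate receptor, were near level at log2 -0.06 and 0.11. The panels of summed marker lists set the 5 sub-clusters beside neurons and oligodendrocytes.

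**Figure D1:**
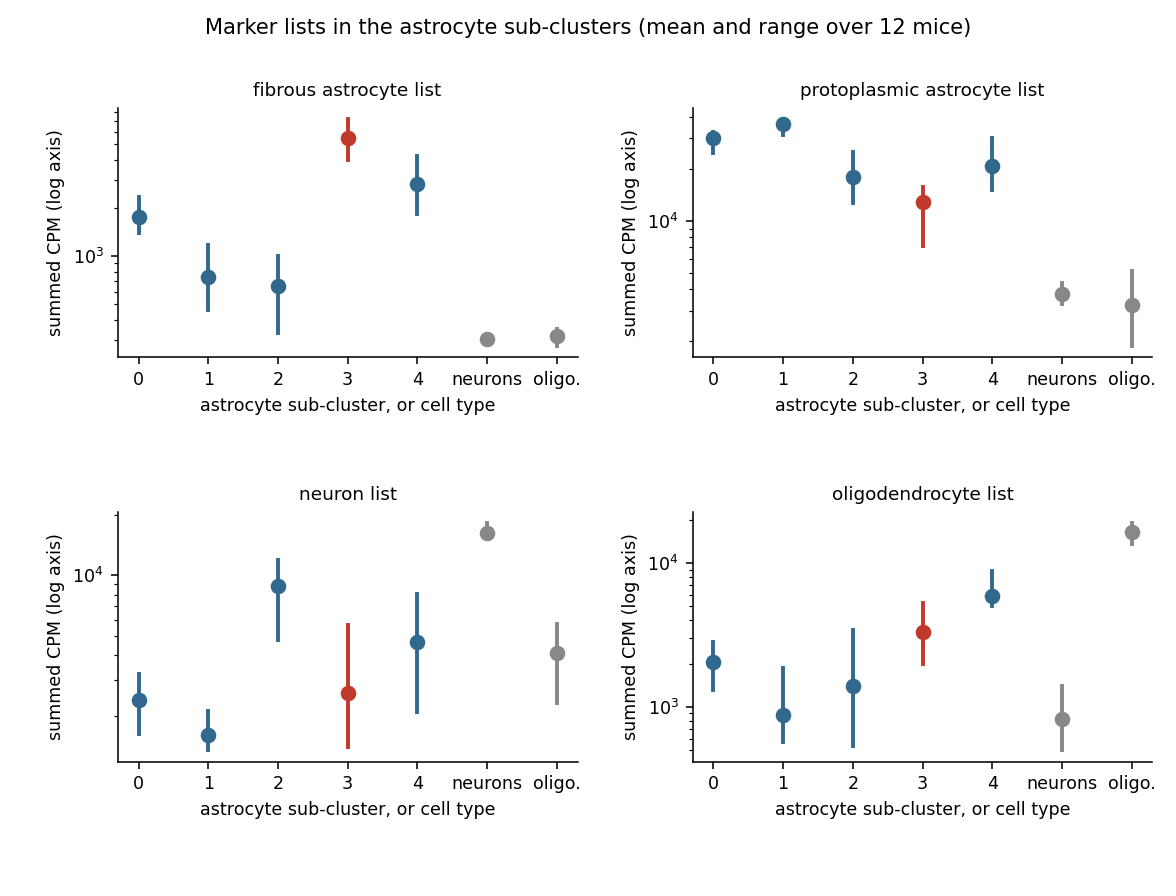
Summed CPM (log axis) of the fibrous astrocyte, protoplasmic astrocyte, neuron and oligodendrocyte lists in the 5 astrocyte sub-clusters, neurons and oligodendrocytes, with points at the mean and bars from the lowest to the highest of 12 mice. Sub-cluster 3 (red) has the highest fibrous mean, 5501 CPM, and the lowest protoplasmic mean among astrocytes, 12814 CPM, while its neuron mean of 2591 CPM is far below the 16232 CPM of neurons.

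Ranked by the median log2 ratio, the 15 genes highest in sub-cluster 3 included Ccdc3, Cd44, Gm26776, Gm10635, A2m, Sntg2, Myoc, Pdzrn3, Col23a1, C530044C16Rik, Ccdc148, Bmp6, Ano1 and St6galnac3. All 15 had a higher mean in sub-cluster 3 than in each of the other 4 sub-clusters, and 14 were higher in 12 of 12 mice, Myoc in 11. Ccdc3 led with 303 ± 153 vs. 9.91 ± 6.15 CPM and a log2 ratio of 3.98, lowest in any mouse 3.06. It lies on chromosome 2 at 5137776-5230878 on the plus strand, and the long non-coding RNA Gm26776 covers nearly the same interval, 5137749-5230864, on the minus strand, so reads of the pair can be told apart only where the counting used strand. A2m, which encodes the protease inhibitor alpha-2-macroglobulin, stood at 440 ± 181 vs. 49.2 ± 20.1 CPM, Col23a1, a transmembrane collagen, at 541 ± 176 vs. 82.0 ± 20.4, and St6galnac3, a sialyltransferase, at 1413 ± 427 vs. 279 ± 103 CPM. St6galnac3 was higher still in oligodendrocytes, at 3546 CPM, whereas Gm10635 and A2m were at or below 6.27 and 2.97 CPM in neurons and oligodendrocytes. Myoc, the secreted glycoprotein myocilin, spanned 0 to 263 CPM over the mice, the bone morphogenetic protein gene Bmp6 16.4 to 282 and the calcium-activated chloride channel gene Ano1 8.85 to 256 CPM.

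The 10 lowest genes were Vav3, Fam19a1, Lgr6, Slco1c1, Grin2c, Gpc5, Kcnmb2, Ccnjl, Etv4 and Colec12. Vav3, a guanine nucleotide exchange factor, stood at 39.9 ± 34.0 vs. 299 ± 102 CPM (log2 -2.82), Slco1c1, a thyroid hormone transporter, at 10.2 ± 10.4 vs. 95.5 ± 26.8, and Grin2c, an NMDA receptor subunit, at 8.95 ± 12.1 vs. 64.9 ± 21.7 CPM. These 3 genes, with Lgr6, a receptor for R-spondins, Gpc5, Ccnjl, Etv4 and Colec12, were below the other astrocytes in 12 of 12 mice and below the mean of every other sub-cluster. Kcnmb2, an auxiliary subunit of calcium-activated potassium channels, was lower in sub-cluster 1 (11.3 CPM) than in sub-cluster 3 (15.1 ± 19.7). Fam19a1, which encodes a secreted chemokine-like protein, was higher in sub-cluster 3 in 1 mouse, male SOD1G93A replicate 2, in which a single nucleus held 88 of the 185 UMIs of the gene in sub-cluster 3.

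**Figure D2:**
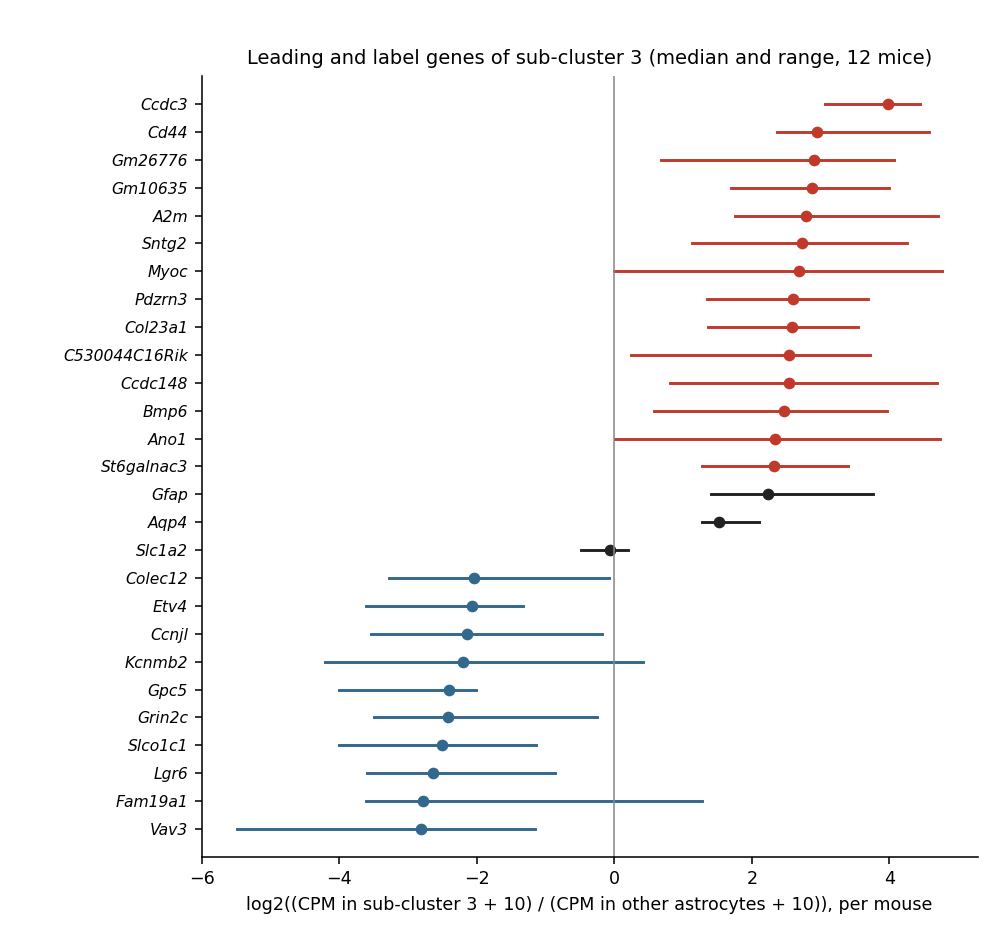
Median (point) and range over 12 mice (bar) of log2((CPM in sub-cluster 3 + 10) / (CPM in other astrocytes + 10)) for genes among the 15 highest (red), the 3 astrocyte markers (black) and the 10 lowest genes (blue). The red bars lie at or above 0, and of the blue bars only those of Fam19a1 and Kcnmb2 reach above 0.

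Lists of astrocyte functions differed in which members were higher. Among 13 pan-reactive genes, which rise in astrocytes after many kinds of injury, 5 had a log2 ratio of at least 1, namely Gfap, Vim, Cd44, the cytokine receptor gene Osmr and the protease inhibitor gene Serpina3n, the last pair on 29 and 30 UMIs in all. The mean sum of the 13 genes was 530% of that in the other astrocytes, and Gfap, Vim and Cd44 are in the fibrous list too. Lcn2, Cxcl10 and Timp1 had 1, 2 and 4 UMIs, and Steap4 had 0. Of 15 complement genes with clusterin, C4b (88.3 ± 43.1 vs. 15.8 ± 10.5 CPM), C3 (45.1 ± 34.8 vs. 2.37 ± 2.97) and Clu (579 ± 224 vs. 242 ± 81.6) had a log2 ratio of at least 1, and the other 12 had between 0 and 19 UMIs. For the 11 metal handling genes the sum was 6525 ± 689 vs. 3519 ± 754 CPM, and the metallothioneins Mt1 and Mt2 and the ferritin subunit Fth1 each had a log2 ratio between 1.09 and 1.21. Sub-cluster 4 had a higher sum of this list, 8973 CPM. Apoe, the main lipid carrier of astrocytes, stood at 3335 ± 877 vs. 1546 ± 462 CPM, and Hmgcs1, an enzyme of cholesterol synthesis, had a log2 ratio of 0.71, while the median of the 18 lipid and cholesterol genes was 0.09. Of 24 glutamate receptor genes, 6 were at or below log2 -1, among them the AMPA receptor subunit Gria2 (143 ± 67.1 vs. 448 ± 57.2 CPM) and the metabotropic receptor Grm5 (312 ± 211 vs. 669 ± 254), whereas the kainate receptor subunit Grik2 was higher in 12 of 12 mice (1413 ± 447 vs. 691 ± 94.6). Of 16 transport and coupling genes, with a median log2 ratio of -0.08, Aqp4 and the cystine transporter Slc7a11 (224 ± 104 vs. 105 ± 30.2) passed log2 1, and the gap junction gene Gja1 stood at 0.86. Those lower in 12 of 12 mice included Slc6a11, Slc6a9 and the glutamine transporter Slc38a3 (log2 -0.44).

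RNA of neurons was low in sub-cluster 3. The 16 neuron genes summed to 2591 ± 1308 CPM, from 1403 to 5631 over the mice, against 2394 in sub-cluster 0, 1616 in sub-cluster 1, 4633 in sub-cluster 4, 8846 in sub-cluster 2 and 16232 in neurons. None of the 16 had a log2 ratio of 1 or more to the other astrocytes, and Rbfox3, a splicing factor that marks neurons, Syt1 and Snhg11 were at or below -1. The median nucleus of sub-cluster 3 held 1729 CPM of the list, the median neuron 16175 CPM. Of the 195 nuclei, 5 (2.56%) reached at least 0.5 times the neuron median, 2 of them in female SOD1G93A replicate 1 and 1 each in male SOD1G93A replicates 1 and 3 and female WT replicate 1, and 0 reached the median itself. In sub-clusters 2 and 4 the shares at 0.5 times the neuron median were 27.3% and 22.5%. After thinning, Rbfox3 was seen in 2.59% of nuclei of sub-cluster 3 (1.11 to 5.92) and in 1.83% of sub-cluster 1, whereas Snap25, a synaptic vesicle fusion protein, was seen in 37.3% and 30.8%.

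RNA of oligodendrocytes was intermediate. The 13 genes summed to 3297 ± 985 CPM (1974 to 5313 over the mice), above the 2149 ± 605 of the other astrocytes in 10 of 12 mice, below the 5941 of sub-cluster 4 and far below the 16433 of oligodendrocytes. Mbp, myelin basic protein, stood at 1261 ± 299 vs. 826 ± 251 CPM, higher in 12 of 12 mice. None of the 13 genes reached log2 1, and Mag, Opalin and Mog, which are found in myelin, had ratios of -0.42, -0.31 and close to 0. In single nuclei, 10 of 195 (5.13%) reached at least 0.5 times the median of oligodendrocytes, against 17.4% in sub-cluster 4 and 0.19% in sub-cluster 0, and 1 reached the median. Mbp was seen in 79.3% of thinned nuclei (73.0 to 84.4; unthinned 94.4%), between 59.0% in sub-cluster 0 and 94.7% in sub-cluster 4. The 7 genes of oligodendrocyte precursor cells (OPCs) summed to 1500 ± 287 CPM, the highest mean of the 5 sub-clusters, vs. 972 ± 155 in the other astrocytes, higher in 11 of 12 mice. Lhfpl3 made up most of this sum, at 1317 ± 285 vs. 953 ± 161 CPM and higher in 12 of 12 mice, while Pdgfra and Cspg4, which define OPCs, had 9 and 8 UMIs in sub-cluster 3. Markers of microglia, endothelial and mural, ependymal, Schwann and fibroblast cells summed to at most 111 ± 117 CPM in sub-cluster 3, and Cldn5 and Csf1r, which define endothelial cells and microglia, were seen in 1.04% and 0.52% of thinned nuclei. Doublets of nuclei from 1 mouse were not marked in the deposited annotation and were not removed here.

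The percent of UMIs from mitochondrial genes, which the count table itself does not hold, was higher in sub-cluster 3 than in the other astrocytes of the same mice. The per-mouse median was 2.05 ± 0.99% vs. 1.03 ± 0.48%, higher in 11 of 12 mice, and the paired difference was 1.03 ± 0.86 points (two-sided exact permutation p = 0.000977, n = 12). With the mean over nuclei in place of the median it was 0.48 ± 0.68 points, higher in 9 of 12 mice (exact permutation p = 0.0337). The other sub-clusters were not alike, in comparisons added after seeing the data. Sub-cluster 3 exceeded sub-clusters 1 and 2 by 1.71 and 1.52 points, each in 12 of 12 mice (exact permutation p = 0.000977 after adjustment over the 4 sub-clusters). It fell 3.78 points below sub-cluster 4, higher in 1 of 12 mice (adjusted exact permutation p = 0.00195), and the 0.60 points over sub-cluster 0 did not pass (adjusted exact permutation p = 0.0537).

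The share of astrocyte nuclei in sub-cluster 3 was higher in SOD1G93A mice. The WT mice spanned 7.56% to 12.0% with a median of 8.65%, and the SOD1G93A mice 13.4% to 31.1% with a median of 17.5%. The groups did not overlap, and the highest share, in female SOD1G93A replicate 1, rested on 14 of 45 astrocytes (95% Wilson interval 19.5 to 45.7%). The means were 9.35 ± 1.87% and 18.9 ± 6.41% (SD, n = 6 each). The difference was 0.97 on the log2 scale in edgeR's quasi-likelihood test (adjusted p = 0.000278 over the 5 sub-clusters). Exchanging genotypes within pool and sex gave a mean difference of 9.51 ± 5.44 points, higher in 6 of 6 pairs (exact permutation p = 0.03125, the smallest this design allows).

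Means went from 11.7% to 23.8% in pool A, from 8.18% to 16.3% in pool B and from 8.19% to 16.4% in pool C, so every pool showed the direction. The log2 difference was 0.66 in males (adjusted p = 0.0388 in edgeR) and 1.27 in females (adjusted p = 0.000808), and the difference between the sexes, -0.61, did not pass (adjusted p = 0.737). Among the other sub-clusters, sub-cluster 1 fell from 36.9% to 14.7% (log2 -1.40, adjusted p = 0.00173 in edgeR), and sub-cluster 4 went from 7.53% to 17.6% (adjusted p = 0.0925). The groups did not overlap for sub-cluster 1 either (26.9% to 42.6% in WT, 4.81% to 21.6% in SOD1G93A). As a percent of all nuclei, sub-cluster 3 went from 0.999% to 1.95%. On that measure the groups overlapped, with 0.579% to 1.54% in WT and 1.21% to 2.55% in SOD1G93A. Shares of a whole are tied, so a rise in 1 sub-cluster and a fall in another are not separate results. Over all astrocytes, 2 of the 15 highest genes, Cd44 and Pdzrn3, were higher in SOD1G93A at an FDR of 0.1 in limma and 0 were lower. Of the 10 lowest genes, 5 were lower, Gpc5, Vav3, Ccnjl, Grin2c and Lgr6, and 0 were higher, and of all genes tested there 1.38% were higher and 0.909% lower. Gfap was also higher there. All astrocytes include sub-cluster 3, so these calls are not independent of its share. With sub-cluster 3 left out, Pdzrn3 and Cd44 were higher and Gpc5, Vav3 and Ccnjl lower at the same FDR. Of all genes tested in the other astrocytes, 0.488% were higher and 0.465% lower. The 5 lower genes had their highest mean of the 5 sub-clusters in sub-cluster 1. More nuclei of the kind of sub-cluster 3 and a shift of expression that moves nuclei across its border cannot be told apart.

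**Figure D3:**
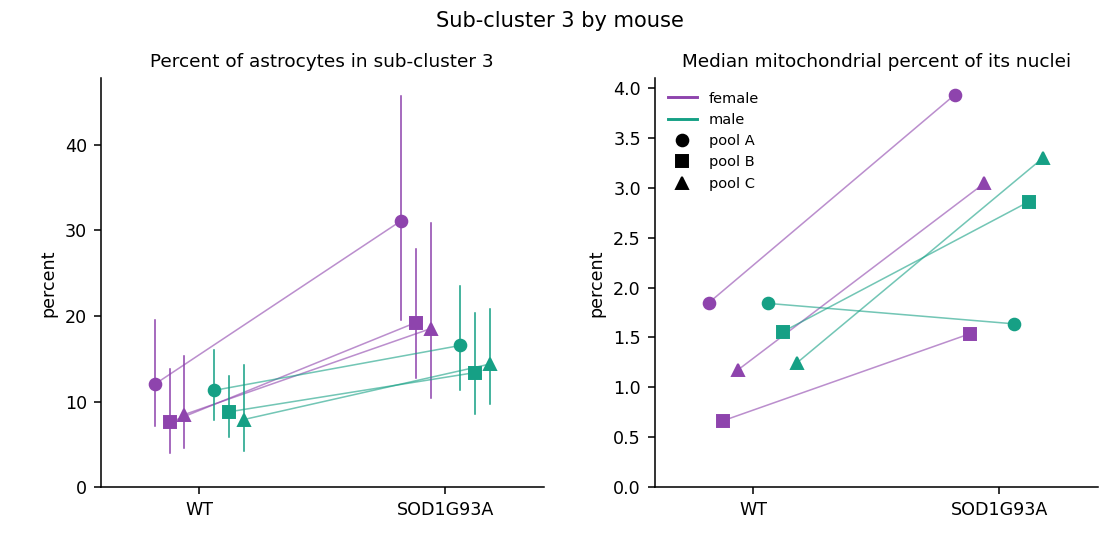
Left, percent of each mouse's astrocytes in sub-cluster 3 with 95% Wilson intervals; right, median mitochondrial percent of its nuclei; lines join mice of the same pool and sex. The share runs from 7.56% to 12.0% in WT and from 13.4% to 31.1% in SOD1G93A, and 5 of 6 lines rise in the right panel.

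Genotype changes within sub-cluster 3 were tested with limma on UMI sums per mouse, with pool in the model. Sod1, on chromosome 16 at 90220754-90226329, checks the labels, since transcripts of the human transgene can be counted on the mouse gene. It spanned 56.4 to 265 CPM in WT (median 168) and 478 to 1040 in SOD1G93A (median 682). The groups did not overlap, as held in this direction for 0.189% of the genes tested and in the opposite direction for 0.0945%, and the log2 fold change was 2.34 (SE 0.23, adjusted p = 1.08e-06). Of 3173 genes tested, 2 passed an FDR of 0.1 (0.063%), both higher, Sod1 and Ednrb, and 258 had an unadjusted p under 0.05, 107 higher and 151 lower. None of the lower genes passed in limma, and edgeR and DESeq2 each called 1 gene, Sod1.

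Ednrb, the endothelin receptor type B, through which endothelins act on astrocytes, lies on chromosome 14 at 103814625-103844402. It spanned 54.2 to 256 CPM in WT (median 173) and 195 to 402 in SOD1G93A (median 365). The ranges overlapped through female SOD1G93A replicate 3, at 195 CPM, while the other 5 SOD1G93A mice were above every WT mouse. The log2 fold change was 1.22 (SE 0.24, adjusted p = 0.0484 in limma), vs. 0.27 in the other astrocytes (adjusted p = 0.417), and the difference between the effects, 0.90, did not pass (adjusted p = 0.137). The call did not hold in edgeR (adjusted p = 0.133), in DESeq2 (0.275), with a minimum count of 30 (0.272), without the robust option (0.139) or with only the 146 nuclei lower in neuron and oligodendrocyte RNA (0.137). Adjusted p ran from 0.00995 to 0.245 with 1 mouse left out, above 0.1 without female SOD1G93A replicate 2, female WT replicate 2 or male WT replicate 1.

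The next genes by p did not pass. On the higher side they included Rgs20, a regulator of G protein signalling (log2 0.91, adjusted p = 0.104 in limma) and Trpm3 (0.42, 0.184). On the lower side they included Gm2163 (-0.85, 0.184), Map7d2, a microtubule-binding protein (-1.07, 0.191), 4930578G10Rik (-0.86, 0.198) and Gm14964 (-0.88, 0.198). Gm2163 and 4930578G10Rik lie near each other on chromosome 4, at 42466752-42589938 and 42735545-42846248, where near-identical copies can share reads, and their values are uncertain. Both were lower in the other astrocytes too, at log2 -0.57 (adjusted p = 0.0656 in limma) and -0.60 (0.176). Map7d2 and Gm14964 were at -0.12 (0.761) and 0.04 (0.968) there. With 1 mouse left out the number of genes passing ran from 1 to 40, the most without male SOD1G93A replicate 1.

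None of the members of a gene list passed in sub-cluster 3, against 0.063% of all genes tested. For the fibrous list, 9 of 10 genes were tested, with a median log2 of 0.00 beside -0.02 over all genes, and 2 members were higher and 2 lower at an unadjusted p under 0.05, as were 3.37% and 4.76% of all genes tested. Gfap was at 822 to 1579 CPM in WT (median 1188) and 1151 to 1810 in SOD1G93A (median 1302). The groups overlapped, with log2 0.22 (SE 0.15, adjusted p = 0.729 in limma). Vim was at log2 1.59 (SE 0.41, 0.198) and Cd44 at 0.04 (SE 0.23, 0.982). For the protoplasmic list, 9 of 10 genes were tested, 8 with a positive log2, a median of 0.39, 5 higher and 1 lower at an unadjusted p under 0.05, beside the same 3.37% and 4.76% of all genes. The sum of this list stood at 7123 to 9227 CPM in WT females and 12101 to 15756 in SOD1G93A females. In males the sums were 13088 to 15108 CPM in WT and 13239 to 15591 in SOD1G93A. Kcnj10 was at log2 0.66 (SE 0.19, 0.272) and Gpc5 at 0.39 (SE 0.16, 0.532). Of the astrocyte list, 11 of 12 were tested (median 0.22), with Aqp4 at 0.38 (SE 0.12, 0.324) and Slc1a2 at 0.31 (SE 0.09, 0.317).

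The remaining lists gave the same count. In the metal list 6 of 11 genes were tested (median 0.35), with Mt1 at log2 0.49 (SE 0.15, adjusted p = 0.332 in limma) and Fth1 at 0.04 (SE 0.11, 0.951). In the complement list only Clu, the secreted chaperone clusterin, and C4b passed the filter on low counts, at log2 0.72 (SE 0.19, 0.236) and 0.62 (SE 0.32, 0.636). The neuron list, with 6 of 16 tested, had a median of 0.20, and its summed level was 2567 ± 1531 CPM in WT and 2614 ± 1192 in SOD1G93A. The oligodendrocyte list, with 8 of 13 tested, had a median of 0.07 and sums of 3177 ± 1098 and 3416 ± 946 CPM. The median mitochondrial percent was 1.39 ± 0.45 in WT and 2.72 ± 0.95 in SOD1G93A nuclei of sub-cluster 3, higher in 5 of 6 pairs (exact permutation p = 0.0625, smallest possible 0.03125, added after seeing the data). In the other astrocytes it was 0.72 ± 0.22 and 1.34 ± 0.48, also higher in 5 of 6 pairs (exact permutation p = 0.0625, added after seeing the data). The part of the mitochondrial percent in the genotype values was not tested.

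None of the leading genes of sub-cluster 3 passed the test of genotype within it. All 15 highest genes were tested and 0 passed in limma, against 0.063% of all genes tested, so that the count says little of these genes. Of the 15, 2 had a positive log2, and the median was -0.42 beside -0.02 over all genes. Of the 10 lowest genes, 2 passed the filter on low counts and 0 passed the test. Membership may rest on the expression of the same nuclei, and its part in these values was not tested.

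In the other astrocytes of the same 12 mice, with 1360 nuclei, 82 of 8607 genes passed (0.953%). When these were thinned to the UMIs that each mouse gave to sub-cluster 3, an alternative added after seeing the data, 23 of 2879 genes passed. This thinning matched the UMIs of each mouse but not its number of nuclei. Calls in 1 population and not in the other do not show a difference, which was tested directly within mice. Of 5398 genes, 17 differed in genotype effect between sub-cluster 3 and the other astrocytes (0.315%), 10 with a higher effect in sub-cluster 3 (0.185%) and 7 with a lower one (0.13%).

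Gfap had the smaller effect in sub-cluster 3. Gfap, Gpc5 and Trpm3 also tell sub-cluster 3 from the other astrocytes, so that membership may rest on them, and its part in these differences of effect was not tested. In the other astrocytes Gfap spanned 108 to 226 CPM in WT (median 129) and 302 to 441 in SOD1G93A (median 374). The groups there did not overlap, and the share of all genes that separate there was not computed. The log2 fold change there was 1.29 (SE 0.14, adjusted p = 1.3e-05 in limma), and the difference of effects was -1.05 (SE 0.20, adjusted p = 0.00909). Even so, the lowest mouse of sub-cluster 3, at 822 CPM, was above the highest of the other astrocytes.

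Gpc5 and Trpm3 differed in the opposite sense. Gpc5 spanned 555 to 1792 CPM in WT (median 1099) and 1095 to 2002 in SOD1G93A (median 1492) in sub-cluster 3. Among females there it stood at 555 to 1031 CPM in WT and 1308 to 1534 in SOD1G93A. Among males it stood at 1167 to 1792 and 1095 to 2002 CPM. In the other astrocytes it spanned 9028 to 12497 in WT and 6181 to 8564 in SOD1G93A. The groups overlapped in sub-cluster 3 and did not in the other astrocytes, where the share of all genes that separate was not computed. The difference of effects was 1.01 (SE 0.15, adjusted p = 1.47e-05 in limma). Trpm3 spanned 2397 to 5954 CPM in WT (median 3962) and 4549 to 6585 in SOD1G93A (median 5121) in sub-cluster 3. Among females there it stood at 2397 to 3108 CPM in WT and 4549 to 6585 in SOD1G93A. Among males it stood at 4815 to 5954 and 5120 to 5276 CPM. In the other astrocytes its medians were 12995 and 10067 CPM. These groups overlapped in both populations, and the difference of effects was 0.83 (SE 0.12, adjusted p = 1.47e-05 in limma). The test of a difference between the sexes in sub-cluster 3 passed for neither gene.

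**Figure D4:**
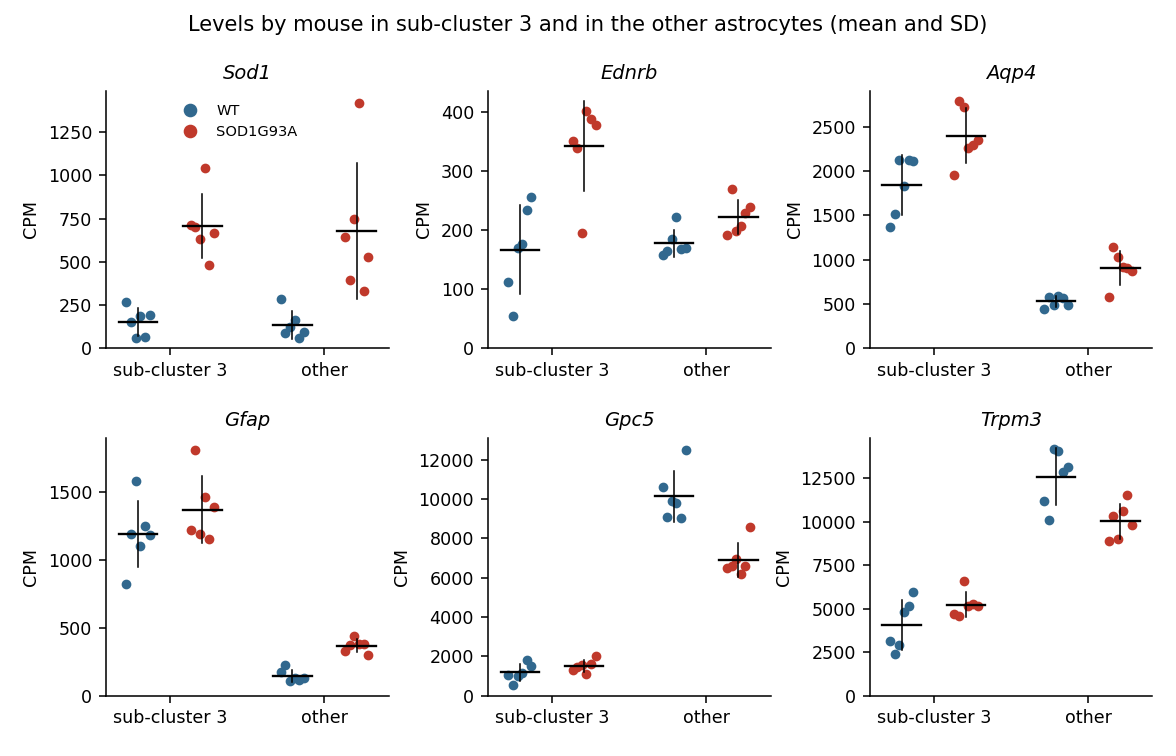
CPM of 6 genes by mouse in sub-cluster 3 and in the other astrocytes, WT in blue and SOD1G93A in red, with horizontal lines at the mean and vertical lines of 1 SD (n = 6 per group). Sod1 separates the genotypes in both populations, Gfap and Gpc5 separate them only in the other astrocytes, and Ednrb has 1 SOD1G93A mouse, at 195 CPM, within the WT range of sub-cluster 3. The share of all genes that separate the genotypes in the other astrocytes was not computed.

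Others higher in effect in sub-cluster 3 included Gm12239 (difference 0.78, adjusted p = 0.0262 in limma), Brinp3 (0.75, 0.0394), the potassium channel gene Kcnma1 (1.07, 0.0593), the glial transcription factor gene Nfia (0.58, 0.0645), Lhfp (0.73, 0.0843), the nuclear receptor gene Rora (0.50, 0.0959) and Prr16 (0.98, 0.0967). Nfia spanned 1575 to 1855 CPM in WT and 1877 to 2373 in SOD1G93A in sub-cluster 3, without overlap, as held in this direction for 0.189% of the genes tested there. Its own test in sub-cluster 3 did not pass (log2 0.20, adjusted p = 0.657 in limma). Those lower in effect included Fam135b (-1.61, 0.0262), the GTPase activating gene Arhgap6 (-1.97, 0.0498) and the non-muscle myosin gene Myh10 (-1.80, 0.0645). In sub-cluster 3 these genes rested on 117, 146 and 66 UMIs in all, and 1 nucleus of female WT replicate 1 held 24 of those of Fam135b. None of these 10 calls held with each mouse left out. Of the 12 such fits, Gm12239 passed in 10 (highest adjusted p = 0.149 in limma), Kcnma1 (0.329), Fam135b (0.275) and Arhgap6 (0.164) in 8, Brinp3 in 6 (0.219), and Nfia (0.219), Lhfp (0.311), Rora (0.473), Prr16 (0.336) and Myh10 (0.322) in 5. The highest p came without male SOD1G93A replicate 1 for Fam135b, Arhgap6 and Myh10, without female SOD1G93A replicate 1 for Prr16 and without male WT replicate 1 for the other 6.

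The other astrocytes are a mixture whose make-up differed by genotype. Sub-cluster 1, which fell as a share, held the most Gpc5 (13353 CPM) and Trpm3 (15467 CPM) of the 5 sub-clusters and 103 CPM of Gfap. Against sub-cluster 0 alone, an alternative added after seeing the data, 1 gene passed, Trpm3 with a difference of 0.54 (adjusted p = 0.016 in limma). The differences of Gpc5 and Gfap were then 0.56 (adjusted p = 0.332) and -0.61 (0.550). Within sub-cluster 0 the genotype effect was -0.14 on Gpc5 (adjusted p = 0.880 in limma), -0.08 on Trpm3 (0.962) and 0.86 on Gfap (0.00219). The plot of log2 fold changes shows both populations for the genes named here.

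**Figure D5:**
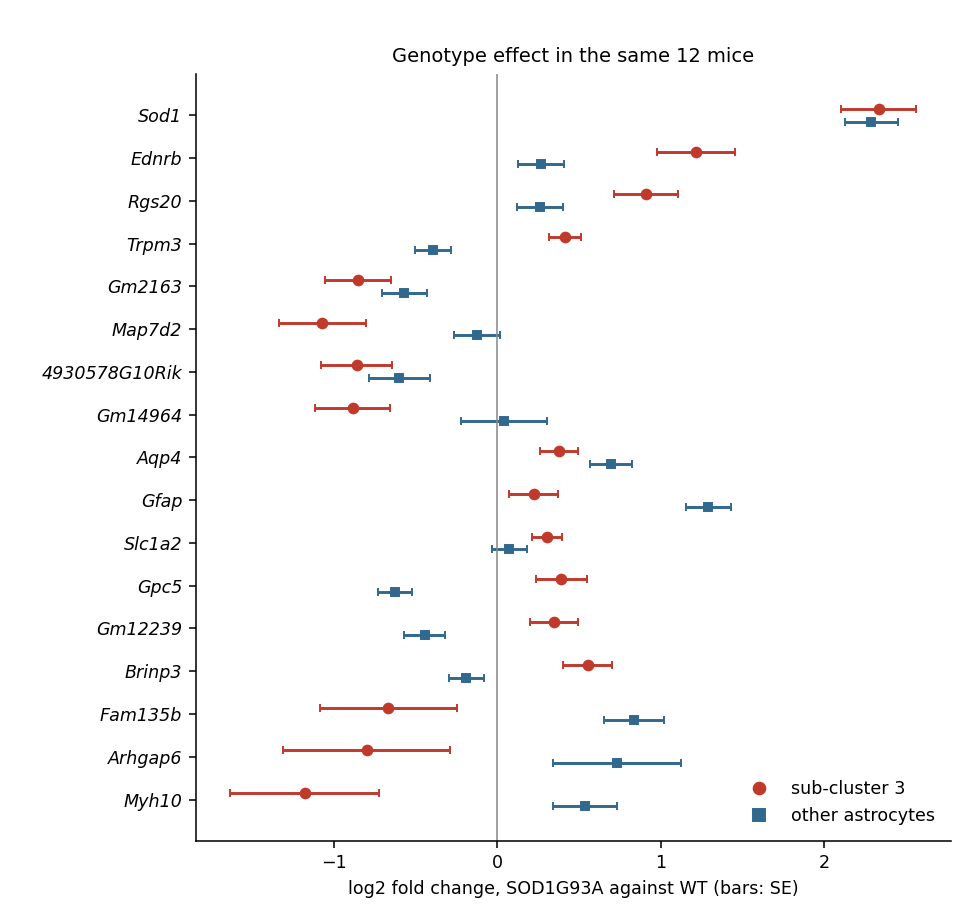
Log2 fold change, SOD1G93A against WT, with SE bars in sub-cluster 3 (red circles) and in the other astrocytes (blue squares) of the same 12 mice. Sod1 is alike in both at 2.34 and 2.29, Ednrb is at 1.22 vs. 0.27, Gfap at 0.22 vs. 1.29 and Gpc5 at 0.39 vs. -0.63.

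Tested apart by sex, which was added after seeing the data, 5 genes passed in males (Sod1, Pde10a, Htr2c, Nmnat2 and Zfp804a) and 2 in females (Sod1 and Trpm3), all higher in SOD1G93A. The effects of the sexes differed for 1 gene, Pde10a, which encodes a cyclic nucleotide phosphodiesterase. Its log2 fold change was 3.25 in males and -1.81 in females, and the difference was 5.07 (SE 0.80, adjusted p = 0.00442 in limma). The gene rested on 176 UMIs in all, 60 of them in male SOD1G93A replicate 2, at 531 CPM, where 1 nucleus held 32. Among WT mice, female replicate 1 stood at 223 CPM and the other 5 at 0 to 54.2 CPM. With 1 mouse left out, also added after seeing the data, the difference ran from 4.15 (adjusted p = 0.0441 in limma), without female WT replicate 1, to 6.18. It was 4.75 without male SOD1G93A replicate 2 (adjusted p = 0.000505 in limma) and did not pass without male WT replicate 1 (5.76, adjusted p = 0.112), nor did any other gene. The number of genes whose effects differed by sex went from 1 to 45 without male SOD1G93A replicate 1, 17 without female WT replicate 2, 5 without male WT replicate 2, 4 without female WT replicate 1, 3 without male SOD1G93A replicate 2 or 3 or male WT replicate 3, and 2 without female WT replicate 3. For Ednrb the effects were 0.92 in males and 1.52 in females, with a difference of -0.60 (SE 0.47, adjusted p = 0.791).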

How the data were processed

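Single-nucleus RNA-seq of 12 mice in 3 pools was analysed. The authors deposited UMI counts per gene and nucleus without normalization, made with Cell Ranger 3.1, STAR 2.5.1b and bcl2fastq 2.20.0.422 on a pre-mRNA mm10 reference, and nuclei were assigned to mice by hashtag in R 4.0.3 with the package Seurat 4.0.3. Nuclei with fewer than 200 genes, over 10% mitochondrial UMIs, several hashtags or none had been discarded, and mitochondrial genes removed. The deposited mitochondrial percent and the hashtag margin, a score deposited by the authors, are per nucleus. How astrocyte sub-clusters were computed is not given in the sources used here, and the deposited normalized values were not used. Each of the 4 groups of sex and genotype held 3 separate mice, identified from the deposited tables. Of the barcode sequences, 15 occur in more than 1 pool, 0 of them in sub-cluster 3. Columns left unmapped number 0.

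UMIs were summed per mouse. Genotype effects used limma 3.58.1 (voom, robust eBayes) after filterByExpr (minimum count 10) and TMMwsp scaling in edgeR 4.0.16, with terms for group and pool, in R 4.3.3. P-values were adjusted over all genes by the Benjamini-Hochberg method, at an FDR of 0.1 for genes and 0.05 for abundance. Abundance used edgeR's quasi-likelihood test. The difference between sub-cluster 3 and other astrocytes was fitted with mouse as a term. DESeq2 1.42.0 was an alternative, as were other scalings, filters, nuclei and mice left out. Ratios between populations used a pseudocount of 10 CPM.

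The pool, a labelled batch holding 1 mouse of each group, is the block that pairs the mice. Deviations from group means correlated with a median r of 0.06 over 18 same-pool pairs and -0.01 over 36 others. On simulated data with the means and library sizes of sub-cluster 3 (2951 genes, 200 changed), limma recovered 71.1% of genes changed by a log2 of 1 and 99.0% at 2, with 27 false among 198 calls. The changed genes were drawn only from tested genes above a floor on mean UMIs per mouse. Recovery of genes below that floor was not simulated.

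Genes are named by rule: the 15 highest and 10 lowest by median ratio at 50 CPM or more; for genotype, up to 10 per direction by adjusted p, or 5 by p where fewer than 5 passed; for the difference, up to 5 per direction; the 3 label markers, Sod1 and list members that passed. Further list members, genes of the difference and those passing in 1 sex were chosen after their values were seen. The sub-cluster and the lists were chosen with earlier results of these data known. Positions are from GENCODE vM21 (GRCm38), matched by symbol for 51 of 51 named genes, and some are not given here. Some results on single genes are not reported here.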

Additional observations from a re-analysis of the deposited data

Results flagged for a closer look

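Stray mice were sought with Dixon's ratio at the 95% level in 106 groups of 6 mice. It singled out 15, where chance at 1 in 20 would give 5.3. Among WT mice, female replicate 1 stood apart for Fam135b (376 CPM, with 24 of 117 UMIs in 1 nucleus), Pde10a (223 CPM) and the neuron list (5631 CPM). Female WT replicate 3 stood apart for Cd44 (545 CPM) and Bmp6 (282 CPM), male WT replicate 3, the mouse with the fewest UMIs, for Ano1 (256 CPM), and male WT replicate 1 for the oligodendrocyte list (5313 CPM).

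Among SOD1G93A mice, female replicate 1 stood apart for the share of astrocytes in sub-cluster 3 (31.1%), female replicate 3 for Ednrb (195 CPM, the lowest) and Trpm3 (6585 CPM), and female replicate 2 for Ccnjl (27.1 CPM). Male SOD1G93A replicate 3 stood apart for Fam135b (124 CPM), Lgr6 (37.3 CPM) and Colec12 (43.5 CPM), and male replicate 2 for Fam19a1 (806 CPM).

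Genotype effects that differed between sub-cluster 3 and the other astrocytes, tested within mice by limma, included those of Trpm3 (log2 0.83), Gpc5 (1.01), Gm12239 (0.78), Brinp3 (0.75), Gfap (-1.05), Fam135b (-1.61), Arhgap6 (-1.97) and Myh10 (-1.80). The effect on Pde10a in sub-cluster 3 differed between males and females by 5.07.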

How the results depend on the processing

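The 2 genes that passed in sub-cluster 3 became 1 in edgeR, DESeq2, with a minimum count of 30 or without the robust option, 37 of 17221 genes with no filter, and 5 when only the 146 nuclei lower in neuron and oligodendrocyte RNA were kept, where Sod1 passed and Ednrb did not (adjusted p = 0.137 in limma). Without the replicate block of pool the count stayed at 2, and the share of sub-cluster 3 was 0.95 on the log2 scale (adjusted p = 0.0025 in edgeR), so leaving out the block changed no call. With 1 mouse left out the count ran from 1 to 40. It was 40 without male SOD1G93A replicate 1, 16 without female WT replicate 1, 8 without male WT replicate 1, 7, 1 and 5 without female SOD1G93A replicates 1, 2 and 3, and 1 and 4 without female WT replicates 2 and 3. Sod1 passed in all 22 alternatives. The 17 genes of the difference became 4 with a minimum count of 30, which tested 1788 genes, 1 against sub-cluster 0 alone, and 4 to 43 with 1 mouse left out. It was 42 and 39 without female SOD1G93A replicates 1 and 2, 11 and 32 without male SOD1G93A replicates 1 and 2, 41 and 30 without female WT replicates 1 and 2, and 9, 43 and 4 without male WT replicates 1, 2 and 3. Trpm3, Gpc5 and Gfap passed with each mouse left out. The cause of these shifts was not tested. The share differed by 0.91 to 1.02 (log2) with 1 mouse left out. The mitochondrial difference ran from 0.85 to 1.14 points with 1 mouse left out, was 0.48 with the mean over nuclei in place of the median, 0.60 against sub-cluster 0 and turned to -3.78 against sub-cluster 4. In sub-cluster 3, sums of the astrocyte, fibrous, protoplasmic, neuron and oligodendrocyte lists moved by less than 1 SD in single pools, with equal weight per nucleus and after thinning. In the other astrocytes the neuron sum went from 4085 ± 804 CPM to 3082 with equal weight and 2854 after thinning, and the astrocyte sum from 14634 ± 1274 to 16223 and 16233. Depth, 31242 UMIs in the shallowest mouse, limits single genes.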
